A study of Mus musculus with 48 samples.

Results

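Notch signalling passes between touching cells, and 10 of its genes were followed here through the hair cycle of 3 skin domains and in 3 tissues of an ear comparison. They are the ligands Jag1, Jag2 and Dll1, the receptors Notch1, Notch2 and Notch3, and the target genes Hes1, Hes5, Hey1 and Heyl. The members were taken by gene name from both deposited expression tables, each of which lists 46983 genes, and all 10 were found in both. Whole skin of C57BL/6 mice had been microdissected from 3 domains (chin, ventral and dorsal) at 6 stages: the growth phase anagen (early, mid and late), the regression phase catagen, and the resting phase telogen, as refractory and as competent telogen. This gave 43 libraries in 18 groups of 2 or 3. In the paper, competent telogen is the first telogen and refractory telogen the early part of the second. The ear table holds 2 libraries of telogen ear skin, 3 of the complex of ear cartilage and muscle and 2 of dorsal competent telogen skin, which are the same libraries as in the skin table, so that 48 libraries are distinct. All animals were of the same strain, with no transgene or treatment in the labels, and neither the labels nor the methods state age, sex or pooling for these libraries.

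A Notch ligand on one cell binds a receptor on its neighbour, and the receptor is then cut so that its intracellular part can enter the nucleus and, with Rbpj, switch on genes of the Hes and Hey families. These genes encode transcriptional repressors. In skin the pathway is known for its part in the differentiation of the epidermis and of the hair follicle, and in blood vessels Notch3 and Heyl are known from mural cells, which wrap the endothelium.

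The values are FPKM, fragments scaled by transcript length and by the number of mapped fragments, as the authors deposited them. The methods name a batch correction without its batches, and do not say whether the deposited values carry it. Because FPKM is scaled by length, levels can be set side by side between genes. The skin libraries held about 6840000 to 26400000 fragments (median 12900000), and those of the ear comparison about 7090000 to 29000000, as estimated from the tables. Tests used limma on log2(FPKM + 1) with Benjamini-Hochberg adjustment over all genes tested and a threshold of 0.05, and every fold change below is on that scale, which understates changes of low genes. Nothing states that the libraries of a group came from separate mice, so the p-values measure the spread between these libraries, which may be technical. In whole skin, fewer cells of a type and less RNA per cell cannot be told apart.

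The stage labels were compared with marker genes, and 1 group stood apart. The summed FPKM of 6 cycling-cell markers (Mki67, Top2a, Ccnb1, Cdk1, Birc5 and Bub1) was 26.4 to 38.5 in the 3 libraries labelled ventral early anagen and 37.6 to 53.3 in the 7 of refractory telogen, against 135 or more in the other 33. For 5 melanocyte markers the sums were 16.8 to 17.8 and 9.98 to 22.5, against 177 or more. The libraries labelled competent telogen held cycling markers at 145 to 335 and melanocyte markers at 195 to 322, within the range of anagen and catagen. The ventral early anagen libraries also had the highest sums of keratinocyte markers (8860 to 9176) and endothelial markers (74.6 to 78.3) of the skin table. Tests that compare this group are given with and without it, and correlations over the 18 groups only with it. In 1 ventral catagen library the tissue location tag goes against its title and source name, which were followed.

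Among the ligands, Jag1 had the highest level, from 29.3 to 134 FPKM over the 43 libraries (median 48.1). Jag2 ranged from 2.05 to 11.8 (median 6.39) and Dll1 from 3.32 to 9.54 (median 5.16). The dorsal catagen libraries had both the highest Jag1, at 125 and 134 FPKM, and the lowest Jag2, at 2.05 and 2.08. No other group reached these Jag1 values, since the next in order, chin early anagen, had 65.7 and 92.0. Dll1 was highest in the same dorsal catagen group, at 8.95 and 9.54, but there the libraries overlapped with those of the next group. In the order of the 18 group means, the libraries of neighbouring groups were apart at 2 of 17 places for Jag1, at 2 for Jag2 and at 0 for Dll1.

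Of the receptors, Notch2 was highest, at 18.8 to 49.0 FPKM (median 26.9), followed by Notch1 at 7.39 to 16.2 (median 12.1) and Notch3 at 2.19 to 8.35 (median 4.75). Group means of Notch2 differed least among the 10 genes, by 1.74 times between the highest and lowest group, and those of Notch1 by 1.96 times. Notch3 was highest in the ventral early anagen libraries, at 7.82, 7.84 and 8.35, above every other library of the table, and lowest in dorsal catagen, at 2.19 and 2.29. Neighbouring groups were apart at 1 place for Notch1 and Notch2 and at 4 for Notch3.

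The targets spanned the widest range of levels. Hes1 lay at 45.2 to 189 FPKM (median 103), Heyl at 1.55 to 13.8 (median 8.28), Hey1 at 0.97 to 4.97 (median 1.90) and Hes5 at 0 to 2.21 (median 0.34). Hey1 was highest in ventral early anagen, at 3.97, 4.53 and 4.97, again above all other libraries. Heyl fell into separate ranges. It was 1.55 to 3.74 FPKM in the 7 refractory telogen libraries and 1.80 to 2.61 in the 3 of ventral early anagen, and at least 4.34 in all 33 others. Hes1 was 49.9 to 58.4 and 45.2 to 49.7 in the same groups and 53.0 to 189 in the others, where dorsal catagen, at 53.0 and 57.2, overlapped with refractory telogen.

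Hes5 rests on few fragments. With a transcript of 1273 bases, its FPKM stand for an estimated 0 to 30 fragments per skin library (median 5). It is listed at 0 in 3 libraries and reached 0.5 FPKM in 13 of 43. The stretch of 250 bases before its start in RefSeq (GRCm38.p6, chr4:154960673-154960922, plus strand) is shown because it was the only one of 7 members with an entry that held TGGGAA, the core letters of the Rbpj motif, on either strand. Capitals mark the matches, TTCCCA being the same letters on the other strand.
Hes5: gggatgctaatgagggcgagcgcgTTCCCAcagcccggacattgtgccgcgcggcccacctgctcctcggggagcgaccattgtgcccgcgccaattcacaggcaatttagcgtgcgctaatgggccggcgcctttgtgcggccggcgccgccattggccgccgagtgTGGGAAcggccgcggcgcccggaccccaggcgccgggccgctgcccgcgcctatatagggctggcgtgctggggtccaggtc
The matches lie 226 and 82 bases before the start. Among 32851 promoters, 21.6% hold at least 1 match in a window of this length and 2.77% hold 2 or more. The windows of Jag1, Jag2, Dll1, Notch1, Notch2 and Notch3 held 0, which says only that these letters are not there.

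**Figure D1:**
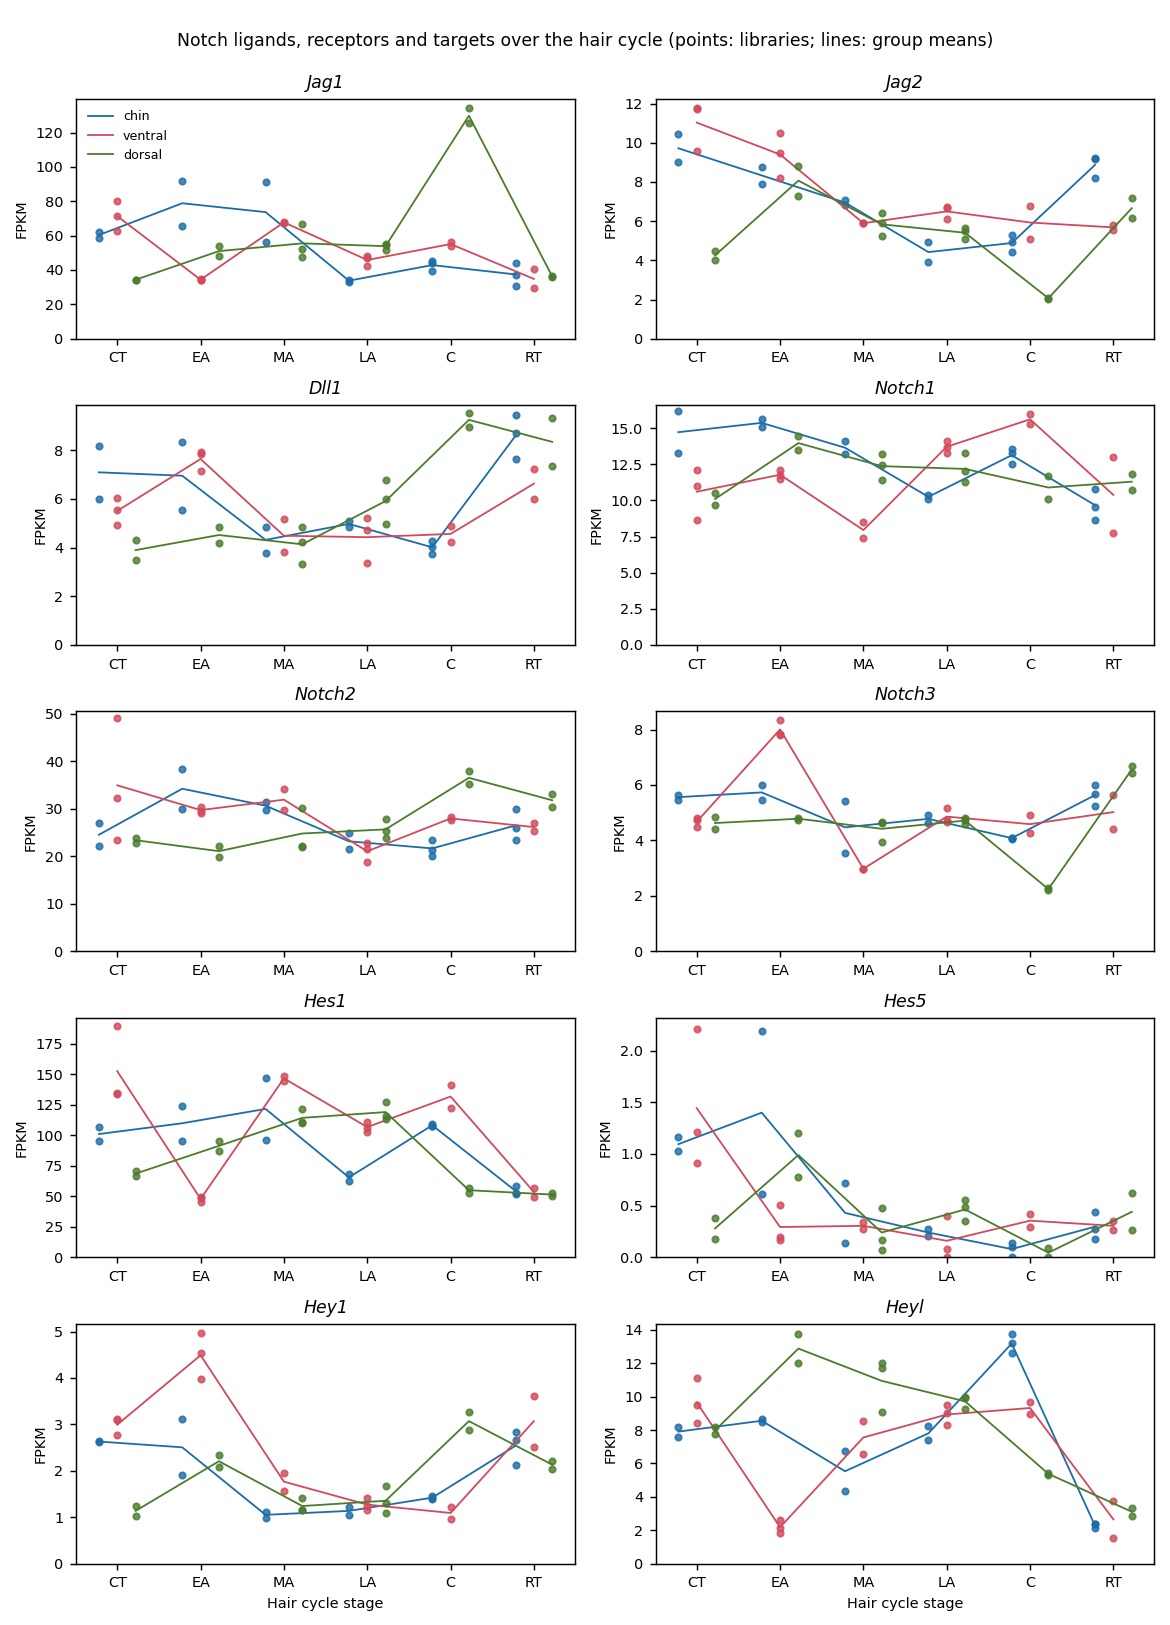
FPKM of the 10 genes (y axis) at 6 hair cycle stages (x axis; CT, competent telogen; EA, early anagen; MA, mid-anagen; LA, late anagen; C, catagen; RT, refractory telogen) in chin, ventral and dorsal skin, with a point for each library and lines through the means of 2 or 3 libraries. Jag1 stands out in dorsal catagen at 125 and 134, and Heyl is at or under 3.74 in refractory telogen and ventral early anagen.

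The study asked whether skin domains pass through the cycle in different ways, and for all 10 genes the course over the 6 stages was not the same in the 3 domains (limma F-test of the interaction, adjusted p from 1.39e-10 for Hes1 to 0.00379 for Hes5). Such an interaction was common, with 73.3% of all 21257 genes tested. Without the ventral early anagen group it was past the threshold for 9, all but Hes5, against 70.6% of all genes. Within chin skin, all 10 differed among the stages, against 66.2% of all genes. In ventral skin all 10 did as well, against 70.2%, and without early anagen 9 did, all but Dll1, against 63.8%. In dorsal skin 9 did, against 68.5%, with Notch1 (adjusted p = 0.109) the exception. The calls of Notch2 in chin skin (adjusted p = 0.0226) and of Hes5 in dorsal skin (adjusted p = 0.0264) were each lost without either of 2 libraries, with adjusted p up to 0.122 without chin early anagen replicate 2 and up to 0.192 without dorsal early anagen replicate 1. That of Notch2 in ventral skin was lost without late anagen replicate 1 (adjusted p = 0.0683). With median-of-ratios scaling and quantile normalization the calls of Notch2 in chin (adjusted p = 0.0758 and 0.0645) and ventral skin (0.0937 and 0.0943) and of Hes5 in dorsal skin (0.063 and 0.0884) were lost, and with the latter that of Notch3 in chin skin (0.101).

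Refractory telogen, in which follicles do not respond to growth signals, was compared with competent telogen, in which they can. The 2 groups are also the second and the first telogen, so hair cycle number and age cannot be told apart from this difference. The targets Heyl and Hes1 were lower in refractory telogen in all 3 domains, and Jag1 and Hes5 in chin and ventral skin. In dorsal skin Jag2, Dll1, Notch3 and Hey1 were higher. In chin skin 0 members rose and 5 fell, against 17.8% and 18.4% of all genes. In ventral skin 0 rose and 5 fell, against 8.12% and 34.5%, and in dorsal skin 4 rose and 2 fell, against 10.8% and 11.3%. The median log2 fold change of the members was -0.34 in chin, -0.59 in ventral and 0.30 in dorsal skin, and that of all genes tested was 0.00 in chin and dorsal and -0.22 in ventral skin. In ventral skin 19.0% of all calls were higher as deposited, 52.3% with median-of-ratios scaling and 47.4% with quantile normalization. Under both of these scalings Dll1, Notch1, Notch3 and Hey1 rose there and Jag1, Jag2, Hes1, Hes5 and Heyl fell. The rises of those 4 were 0.58, 0.32, 0.42 and 0.32 on the log2 scale with median-of-ratios scaling.

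Jag1 was 62.2 and 58.5 FPKM in chin competent telogen and 30.9, 44.1 and 37.3 in chin refractory telogen. In ventral skin it was 62.9, 80.0 and 71.2, and then 40.3 and 29.3. The refractory libraries were all lower than the competent ones in both domains, with log2 fold changes of -0.69 (SE 0.16, limma adjusted p = 0.00112) and -1.02 (SE 0.16, adjusted p = 7.09e-06). In dorsal skin Jag1 was 34.4 and 34.2 in competent and 36.4 and 36.0 in refractory telogen, and both dorsal groups lay within the range of chin refractory telogen.

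Jag2, the other Jagged ligand, took opposite directions. It was 11.8, 11.7 and 9.60 FPKM in ventral competent telogen and 5.56 and 5.80 in ventral refractory telogen (log2 fold change -0.84, SE 0.11, limma adjusted p = 7.38e-07). In dorsal skin it was 4.47 and 4.04, and then 7.18 and 6.14 (log2 fold change 0.54, SE 0.13, adjusted p = 0.00186). The groups did not overlap in either domain, and the dorsal call was lost without dorsal refractory telogen replicate 1 (adjusted p = 0.0519). Dll1, a Delta-like ligand, was 4.32 and 3.47 in dorsal competent telogen and 9.33 and 7.35 in dorsal refractory telogen (log2 fold change 0.93, SE 0.18, adjusted p = 0.000368), also without overlap.

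Each of 2 receptors changed in 1 domain. Notch1 was 16.2 and 13.3 FPKM in chin competent telogen and 10.8, 8.64 and 9.57 in chin refractory telogen (log2 fold change -0.56, SE 0.13, limma adjusted p = 0.00125). Notch3 was 4.84 and 4.41 in dorsal competent telogen and 6.44 and 6.67 in dorsal refractory telogen (log2 fold change 0.43, SE 0.11, adjusted p = 0.0047). Neither pair of groups overlapped. The call of Notch1 was lost without chin competent telogen replicate 1 (adjusted p = 0.0583), and that of Notch3 without dorsal competent telogen replicate 2 (adjusted p = 0.0663). Notch2 passed limma's threshold in 0 domains, with an unadjusted p under 0.05 in 1, dorsal skin.

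Heyl, a Hey-family repressor, was 7.60 and 8.21 FPKM in chin competent telogen and 2.11, 2.34 and 2.34 in chin refractory telogen. In ventral skin it was 11.1, 9.47 and 8.40, and then 3.74 and 1.55, and in dorsal skin 7.77 and 8.19, and then 3.35 and 2.86. Every refractory library was lower than every competent one. The log2 fold changes were -1.45 (SE 0.17, limma adjusted p = 7.08e-08), -1.61 (SE 0.17, adjusted p = 1.14e-08) and -1.13 (SE 0.19, adjusted p = 4.17e-05) in chin, ventral and dorsal skin. These calls held under every alternative run.

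Hes1, the most abundant of the targets, was 107 and 95.3 FPKM in chin competent telogen and 52.6, 58.4 and 52.3 in chin refractory telogen. In ventral skin it was 134, 189 and 134, and then 49.9 and 57.3, and in dorsal skin 71.0 and 66.3, and then 50.5 and 52.5. The refractory libraries were thus close to each other in all domains, and the competent ones were not. Its log2 fold changes were -0.88 (SE 0.13, limma adjusted p = 5.16e-06), -1.48 (SE 0.13, adjusted p = 6.25e-10) and -0.41 (SE 0.15, adjusted p = 0.0454). The dorsal call was lost without any 1 of 18 libraries (adjusted p up to 0.216, without dorsal competent telogen replicate 1) and after rescaling to TPM (adjusted p = 0.113), with quantile normalization (adjusted p = 0.159), without a filter (adjusted p = 0.0698) and without a variance trend (adjusted p = 0.0517).

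Hey1 was 1.25 and 1.02 FPKM in dorsal competent telogen and 2.04 and 2.22 in dorsal refractory telogen, without overlap (log2 fold change 0.55, SE 0.14, limma adjusted p = 0.00485). This was lost without dorsal competent telogen replicate 2 (adjusted p = 0.0708). Hes5 was 1.16 and 1.03 in chin competent telogen, or about 12 and 18 fragments, and 0.44, 0.18 and 0.27 in chin refractory telogen, or about 5, 2 and 4. Its log2 fold change there was -0.70 (SE 0.22, adjusted p = 0.0146), which was lost without either chin competent telogen library (adjusted p = 0.0999 and 0.052). In ventral skin Hes5 was 0.91, 2.21 and 1.21, and then 0.26 and 0.35 (log2 fold change -0.87, SE 0.22, adjusted p = 0.00208).

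**Figure D2:**
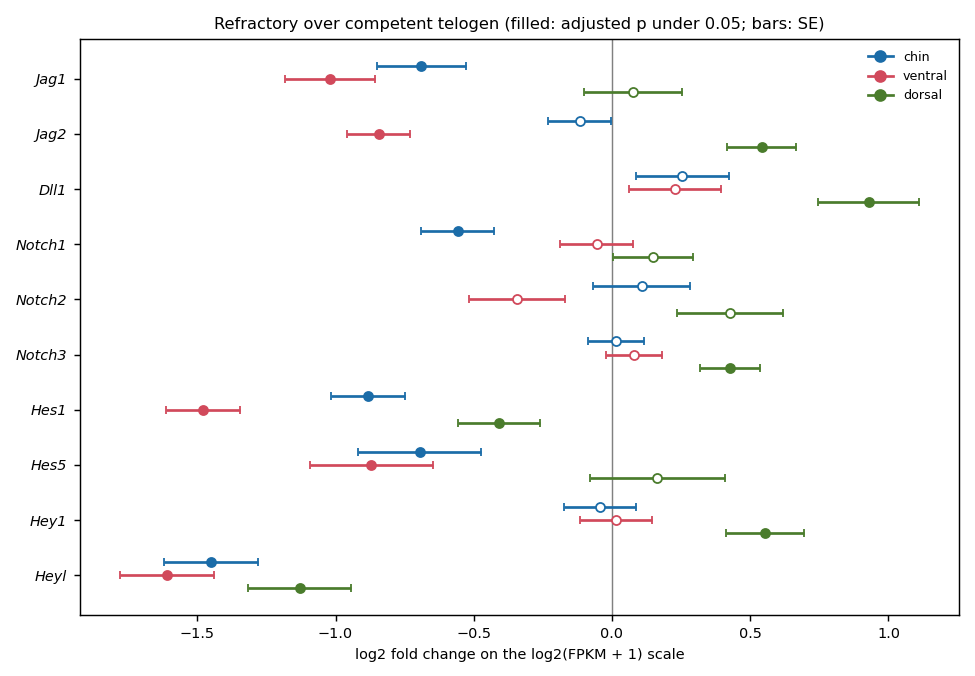
Log2 fold change of refractory over competent telogen on the log2(FPKM + 1) scale (x axis) for the 10 genes (y axis) in chin, ventral and dorsal skin, with bars for the standard error and filled points for an adjusted p under 0.05. Heyl and Hes1 are to the left of 0 in all 3 domains, from -1.61 to -0.41.

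Markers of other cells moved with this comparison. The cycling-cell sum was 145 to 335 in competent and 37.6 to 53.3 in refractory telogen, and the melanocyte sum 195 to 322 and 9.98 to 22.5, with no overlap in either list. Other lists moved within a domain. In chin skin the sums of mural cells and smooth muscle were 97.1 to 99.0 in competent and 163.9 to 248.6 in refractory telogen, endothelial ones 25.3 and 31.5 to 45.6, skeletal muscle ones 372 to 400.9 and 8491 to 12967, macrophage ones 19.2 to 21.2 and 47.8 to 81.9, and adipocyte ones 570 to 602 and 1816 to 2039. In ventral skin fibroblast sums were 3763 to 3989 and 1151 to 1552, adipocyte sums 1057 to 1572 and 3201 to 3387, and mural cell sums 197 to 218 and 151 to 168. In dorsal skin keratinocyte sums were 3355 to 3434 and 6342 to 6606, adipocyte sums 2213 to 2214 and 1104 to 1136, and mural cell sums 103.5 to 107.9 and 82.4 to 83.3. The part of these cells in the values of Heyl, Hes1 and the other members was not tested.

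**Figure D3:**
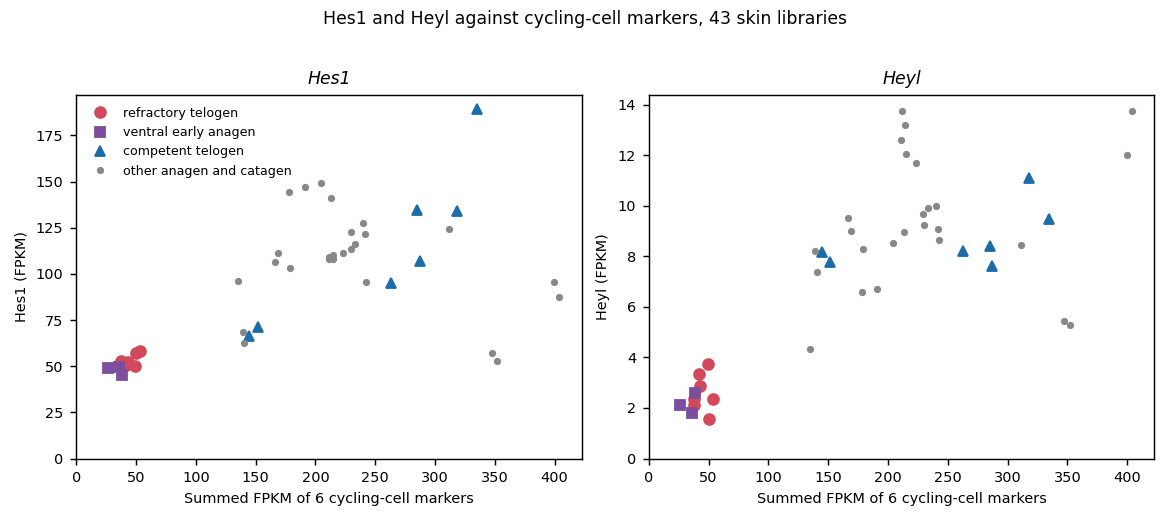
Hes1 (left) and Heyl (right) in FPKM (y axes) against the summed FPKM of 6 cycling-cell markers (x axes) in the 43 skin libraries, with symbols for refractory telogen, ventral early anagen, competent telogen and the other groups. The 10 libraries of refractory telogen and ventral early anagen lie together at the lower left, with sums from 26.4 to 53.3.

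Domains were next compared at each stage with an F-test over the 3 domains. At competent telogen 8 members differed, against 54.0% of all genes, Notch3 and Heyl being the exceptions. The calls of 4 of these were lost when a library was left out: Notch2 (adjusted p up to 0.379, without ventral competent telogen replicate 3), Notch1 (0.183, without chin competent telogen replicate 1), Dll1 (0.0764, without dorsal competent telogen replicate 2) and Hes5 (0.0698, without dorsal competent telogen replicate 1). Those of Dll1 and Notch2 were also lost with median-of-ratios scaling (adjusted p = 0.101 and 0.367) and quantile normalization (0.0914 and 0.382). Jag1, Jag2, Hes1, Hey1, Dll1 and Hes5 were lowest in dorsal skin at this stage, without overlap with the other domains. Jag2 was 10.4 and 9.01 FPKM in chin skin. Hey1 was 1.02 to 1.25 in dorsal, 2.62 to 2.64 in chin and 2.77 to 3.11 in ventral skin. Dll1 was 5.99 to 8.19 in chin and 4.94 to 6.05 in ventral skin. Notch1 and Notch2 overlapped between dorsal skin and another domain. The number of all genes apart in dorsal competent telogen was not counted. Dorsal competent telogen also had hair matrix sums of 3383 to 3422 against 1389 to 1633 in the other domains, inner root sheath sums of 19717 to 19972 against 8027 to 11561, skeletal muscle sums of 3628 to 3696 against 174 to 400.9 and cycling-cell sums of 145 to 152 against 263 to 335. The part of these in the difference was not tested.

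At early anagen 8 members differed, against 51.6%, the exceptions being Jag2 and Notch1. The calls of Dll1 and Notch2 were lost without dorsal early anagen replicate 1 (adjusted p = 0.0907 and 0.119). Without the ventral early anagen group, 4 members differed between chin and dorsal skin, against 26.3% of all genes. These were Jag1, Dll1 and Notch2, which were lower in dorsal skin, and Heyl, which was higher (log2 fold change 0.54, limma adjusted p = 0.0353). Heyl was 8.46 and 8.65 FPKM in chin, 1.80, 2.12 and 2.61 in ventral and 13.8 and 12.0 in dorsal early anagen, so that no 2 domains overlapped.

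Fewer members differed at mid-anagen and late anagen. At mid-anagen they were 4, against 38.1%, namely Notch1, Notch3, Hey1 and Heyl. Notch1 was 7.39 and 8.50 and Notch3 2.97 and 2.98 FPKM in ventral skin, and both were higher in every chin and dorsal library. The call of Hey1 (adjusted p = 0.0425) was lost without any 1 of 6 libraries, with adjusted p up to 0.319 without ventral mid-anagen replicate 1, and without a filter (0.0725). At late anagen they were 3, against 20.8%, namely Jag1, Jag2 and Hes1. Hes1 was 62.5 and 68.7 in chin skin and at least 103 in every ventral and dorsal library. Without chin late anagen replicate 2 only Hes1 was past the threshold, and Jag1 was lost with median-of-ratios scaling (adjusted p = 0.0521).

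At catagen 9 members differed, against 42.9%, all but Hes5. That of Notch1 (adjusted p = 0.0239) was lost without any 1 of 3 libraries, with adjusted p up to 0.172 without dorsal catagen replicate 2, and with TPM (0.0719). Jag1 was 39.3, 43.9 and 45.5 FPKM in chin, 53.9 and 56.3 in ventral and 125 and 134 in dorsal skin, with no overlap (limma F-test, adjusted p = 1.5e-08). Hes1 was 108, 108 and 109, then 123 and 141, and 53.0 and 57.2. Dorsal skin was thus highest in Jag1 and lowest in Hes1, while ventral skin was above chin skin in both. Dorsal skin was also highest in Dll1, Notch2 and Hey1 and lowest in Jag2, Notch3 and Heyl, in each case without overlap with the other domains. How many of all genes lay apart in dorsal catagen in this way was not counted. Markers set dorsal catagen apart as well. Its cycling-cell sums were 347 to 352 against 211 to 230 in the other domains, melanocyte sums 1007 to 1009.7 against 341 to 534, keratinocyte sums 2139 to 2172 against 2663 to 3623, hair matrix sums 1984 to 2036 against 3574 to 4510 and inner root sheath sums 14663 to 15108 against 19995 to 24445. Their part in the members' values was not tested.

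At refractory telogen 2 members differed, against 42.2%, namely Jag2 (adjusted p = 0.000572) and Notch3 (adjusted p = 0.042). The second was lost without any 1 of 4 libraries (adjusted p up to 0.204, without ventral refractory telogen replicate 2), with a pseudocount of 0.1 (0.055) and without a filter (0.0564), and the first with quantile normalization (0.164). When only the 7 refractory libraries were fitted, Jag2 was lower in ventral than in chin skin (5.56 and 5.80 against 9.15, 9.24 and 8.22 FPKM, log2 fold change -0.56, SE 0.13, limma adjusted p = 0.0408). It was the only 1 of 9 members tested that passed, against 13.1% of all genes. The call was lost without any 1 of 5 libraries, with adjusted p up to 0.131 without chin refractory telogen replicate 1. The median of all genes was -0.22 here, and with median-of-ratios scaling, where it was 0.00, the value of Jag2 was -0.29 (adjusted p = 0.242). With quantile normalization Jag2 was -0.26 (adjusted p = 0.324), and Hey1 passed in its place at 0.53 (adjusted p = 0.0492). Of all calls 21.1% were higher as deposited, 53.6% with the first of these scalings and 51.3% with the second. Between dorsal and chin skin 0 of 9 members passed limma's threshold, against 22.9%, and 1 had an unadjusted p under 0.05. In that comparison 18.3% of all calls were higher as deposited, and 44.5% and 48.9% under the same scalings. Between dorsal and ventral skin 0 passed, against 3.56%, with 0 at an unadjusted p under 0.05, and 34.8% of all calls were higher, or 46.5% after rescaling to TPM. Hes5 failed the filter on low values in this fit.

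The mean of early, mid- and late anagen was also set against the mean of competent and refractory telogen. In chin skin 3 members rose (Heyl, Hes1 and Jag1) and 3 fell (Hey1, Dll1 and Jag2), against 8.99% and 27.5% of all genes. In dorsal skin 5 rose (Heyl, Hes1, Jag1, Notch1 and Jag2) and 1 fell (Notch3), against 29.6% and 9.44%. In ventral skin 0 rose and 2 fell (Hes5 and Hey1), against 5.08% and 16.1%. The median of the members was 0.02, 0.19 and -0.09 in chin, dorsal and ventral skin, and that of all genes -0.10, 0.10 and -0.05.

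Heyl had log2 fold changes of 0.60 (SE 0.11, limma adjusted p = 0.00013) in chin and 0.99 (SE 0.11, adjusted p = 6.04e-08) in dorsal skin. For Hes1 they were 0.35 (SE 0.09, adjusted p = 0.00268) and 0.84 (SE 0.09, adjusted p = 1.61e-08). For Hey1 they were -0.53 (SE 0.09, adjusted p = 1.56e-05) in chin and -0.30 (SE 0.08, adjusted p = 0.00751) in ventral skin. Without ventral early anagen, 7 members passed in ventral skin. Of these 2 rose, Heyl at 0.60 (adjusted p = 0.000365) and Hes1 at 0.47 (adjusted p = 0.000462), against 8.63% of all genes. The other 5 fell, against 22.5%, namely Hey1 (-0.68), Hes5 (-0.53), Dll1 (-0.38), Jag2 (-0.32) and Notch3 (-0.27). The values moved with the choice of telogen group. Against refractory telogen alone Heyl was 1.32, 0.89 and 1.56 higher on the log2 scale in chin, ventral and dorsal anagen, and against competent telogen alone it was -0.13 (adjusted p = 0.604), -0.72 (adjusted p = 3.75e-05) and 0.43 (adjusted p = 0.027). In ventral skin, with early anagen included, Hes1 was 0.76 (limma adjusted p = 1.46e-05) against refractory telogen alone. Against competent telogen alone Hes1 was -0.72 there (adjusted p = 1.25e-06).

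Several of the smaller calls rested on few libraries or on the scaling. That of Jag1 in chin skin (0.27, limma adjusted p = 0.0485) was lost in 34 of 43 cases with 1 library left out (adjusted p up to 0.231, without chin mid-anagen replicate 1), after rescaling to TPM (0.20, adjusted p = 0.198), without a filter (adjusted p = 0.08) and without a variance trend (adjusted p = 0.0528). That of Dll1 in chin skin was lost with quantile normalization (-0.31, adjusted p = 0.051), as was that of Hey1 in ventral skin (-0.20, adjusted p = 0.0758). In dorsal skin those of Jag2 (0.21), Notch1 (0.24) and Notch3 (-0.21) were lost without dorsal refractory telogen replicate 2 (adjusted p = 0.177, 0.133 and 0.0535), each also without other libraries (Notch3 with 0.0744 without dorsal competent telogen replicate 1), and that of Hey1 in ventral skin without ventral refractory telogen replicate 1 (adjusted p = 0.0962). With median-of-ratios scaling Jag2 and Notch1 in dorsal skin were 0.02 and 0.03. The share of higher calls among all genes went from 24.7% to 48.5% in chin, from 23.9% to 51.0% in ventral and from 75.8% to 47.5% in dorsal skin with that scaling. With quantile normalization these shares were 46.9%, 48.4% and 56.3%, and with TPM the ventral and dorsal ones were 34.2% and 86.2%. The members split with them. In dorsal skin 3 rose (Heyl, Hes1 and Jag1) and 3 fell (Dll1, Notch2 and Notch3) under either of the first scalings, and 5 rose and 0 fell with TPM, where Notch3 was -0.09 (adjusted p = 0.373). In chin skin 5 rose and 3 fell with median-of-ratios scaling, 4 rose and 2 fell with quantile normalization, and 2 rose and 4 fell with TPM.

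The ear comparison set the complex of ear cartilage and muscle, and ear skin in telogen, against dorsal skin. Its dorsal libraries are labelled competent telogen, while the ear skin is labelled telogen only. Marker sums matched the tissue labels. The complex had cartilage sums of 3248 to 3900 FPKM and skeletal muscle sums of 11941 to 14074, with 7.07 to 7.88 for keratinocytes, and 4 of 6 inner root sheath markers were at 0. Ear skin had 47.5 to 49.0 for hair matrix and shaft and 292 to 299 for inner root sheath, where dorsal skin had 3383 to 3422 and 19717 to 19972. Fibroblast sums were 6254 to 6537 in ear and 765 to 766 in dorsal skin.

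Between ear and dorsal skin, Jag2, Dll1 and Hey1 were higher in ear skin and Heyl, Jag1 and Notch2 lower, 3 in each direction of 9 tested, against 44.7% and 14.6% of all genes. The median of the members was 0.06 and that of all genes 0.33. Heyl was 1.05 and 1.08 FPKM in ear skin and 7.77 and 8.19 in dorsal skin (log2 fold change -2.12, SE 0.15, limma adjusted p = 8.42e-05). Jag2 was 12.9 and 10.3, and 4.47 and 4.04 (log2 fold change 1.26, SE 0.12, adjusted p = 0.000296). For Jag1 the values were 21.1 and 25.1, and 34.4 and 34.2 (log2 fold change -0.56, SE 0.09, adjusted p = 0.00293). The groups were apart for each of these, and the 3 calls held under every alternative run. In dorsal refractory telogen, an alternative dorsal group, Heyl was 3.35 and 2.86, Jag2 7.18 and 6.14 and Jag1 36.4 and 36.0 FPKM. Heyl and Jag2 thus differed less from ear skin with that group. Hair follicle markers moved with the comparison, as given above, and their part in it was not tested.

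The other calls in ear skin were less firm. Dll1 (0.61, adjusted p = 0.0236) was lost when either ear skin library or dorsal replicate 2 was left out (adjusted p up to 0.123, without the last). The call of Notch2 (-0.41, adjusted p = 0.0225) was lost without 1 of the ear skin libraries or either dorsal one (adjusted p up to 0.106, without dorsal replicate 2), and that of Hey1 (0.41, adjusted p = 0.0358) without any of these 4 (adjusted p up to 0.165, without dorsal replicate 2). With dorsal refractory telogen as the dorsal group, Dll1 and Hey1 changed sign, to -0.31 and -0.14, and neither passed. They did not pass with median-of-ratios scaling (0.21 and 0.13) or quantile normalization (0.20 and 0.05) either, and Notch2 did not with TPM (-0.17, adjusted p = 0.246). Dll1 was also lost with a pseudocount of 0.1 (adjusted p = 0.057) and Hey1 without a filter (adjusted p = 0.0663). Of all calls 75.3% were higher as deposited, 48.8% with median-of-ratios scaling and 54.4% with quantile normalization. Under these the members split into 1 higher (Jag2) and 6 or 5 lower.

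In the complex Jag1, Jag2, Dll1 and the 3 receptors were lower than in both skins and Hes1 was higher. Against dorsal skin 1 of 9 members rose and 7 fell, against 42.8% and 28.3% of all genes, with a median of -1.15 for the members and 0.24 for all genes. Against ear skin 1 rose and 7 fell, against 28.0% and 38.5%, where the median of all genes was -0.11. Jag1 was 4.03, 3.95 and 4.22 FPKM in the complex, far under both skins (log2 fold change over dorsal skin -2.80, SE 0.09, limma adjusted p = 9.61e-07, and over ear skin -2.25, SE 0.09, adjusted p = 2.61e-06). The receptors fell against both skins as well. Notch1 was 2.70, 2.18 and 2.02, Notch2 10.2, 9.33 and 10.6, and Notch3 1.7, 1.79 and 1.5, with log2 fold changes over dorsal skin of -1.75, -1.15 and -1.08.

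Hes1 was the member that rose. It was 150, 137 and 151 FPKM in the complex, 77.8 and 76.4 in ear skin and 71.0 and 66.3 in dorsal skin. The complex was apart from both skins, with log2 fold changes of 1.07 (SE 0.06, limma adjusted p = 1.7e-05) over dorsal and 0.91 (SE 0.06, adjusted p = 4.1e-05) over ear skin. Heyl was 0.91, 1.19 and 0.61 in the complex and so overlapped with ear skin (log2 fold change -0.13, SE 0.14, adjusted p = 0.448). Hes5 is listed at 0 in the 3 libraries of the complex and in 1 of ear skin, with 0.04 in the other, and was not tested. The call of Jag2 over dorsal skin (-0.46, adjusted p = 0.011) was lost without dorsal replicate 1 (adjusted p = 0.0723), and that of Hey1 over ear skin (-0.40, adjusted p = 0.0273) without either ear skin library or complex replicate 1 (adjusted p up to 0.142, without 1 of the ear skin libraries). The call of Hey1 was also lost with quantile normalization (-0.22, adjusted p = 0.165) and without a filter (adjusted p = 0.0511). In the complex over dorsal skin 60.2% of all calls were higher, or 46.6% with median-of-ratios scaling. Over ear skin the share was 42.1%, or 31.6% with TPM and 54.3% with quantile normalization. Mural cell and smooth muscle sums were 417 to 487 in the complex, 110 to 111 in ear and 104 to 108 in dorsal skin.

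**Figure D4:**
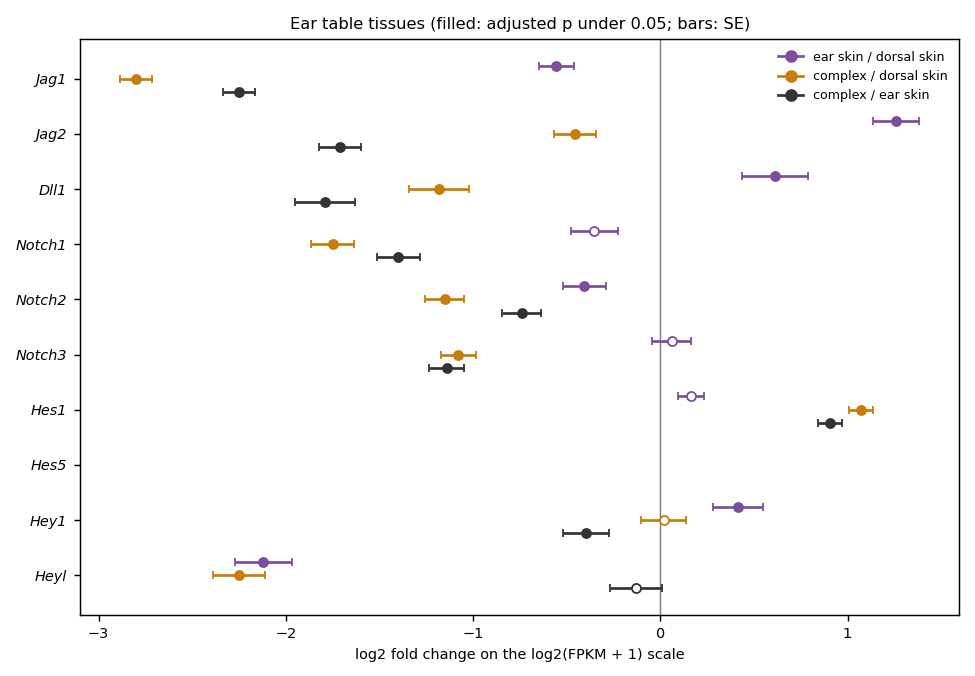
Log2 fold change on the log2(FPKM + 1) scale (x axis) between the 3 tissues of the ear table for 9 of the 10 genes (y axis; Hes5 was not tested), with bars for the standard error and filled points for an adjusted p under 0.05. Jag1 in the complex is farthest to the left, at -2.80, and Hes1 in the complex is to the right of 0, at 1.07 and 0.91.

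Another 52 genes of the pathway were counted in the same fits, of which 50 passed the filter in skin. Between refractory and competent telogen 10 rose and 8 fell in chin skin, against 17.8% and 18.4% of all genes. In ventral skin 3 rose and 22 fell, against 8.12% and 34.5%, and in dorsal skin 5 rose and 3 fell, against 10.8% and 11.3%. Among them, Neurl1a, an enzyme for the uptake of ligands, rose in chin skin from 0.27 to 0.44 FPKM to between 3.15 and 6.53 (log2 fold change 2.08, limma adjusted p = 8.74e-12). Skeletal muscle sums went from 372 to 400.9 to between 8491 and 12967 in the same comparison, and Neurl1a was 4.29 to 7.32 in the ear complex and 0.68 to 0.83 in ear skin. The part of muscle in its change was not tested. Hes2, of the Hes family, fell there from 5.24 to 6.25 to between 0.28 and 0.98 (log2 fold change -2.05, adjusted p = 9.14e-08). Mfng, a glycosyltransferase that modifies Notch receptors, fell in dorsal skin from 4.47 to 6.55 to between 1.2 and 1.33 (log2 fold change -1.51, adjusted p = 2.99e-06). In ear over dorsal skin 28 of 49 tested rose and 4 fell, against 44.7% and 14.6% of all genes, with Dlk2, a Delta-like protein without the domain that activates Notch, at 17.9 to 21.5 against 1.10 to 1.30 (log2 fold change 3.23, adjusted p = 6e-05). In the complex over dorsal skin 21 rose and 17 fell, against 42.8% and 28.3%. Nrarp, a target that feeds back on Notch, was 0.86 to 1.64 there and 20.2 to 21.3 in dorsal skin (log2 fold change -3.34, adjusted p = 7.54e-06). Adam10, the protease of the first cut of the receptor after a ligand binds, was 4.24 to 5.73 and 30.0 to 30.5 (log2 fold change -2.39, adjusted p = 5.59e-06).

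As a description, the 14565 genes with a mean of at least 1 FPKM were ranked by the Pearson correlation of their group means with a member over the 18 groups, which share libraries and scaling. Heyl was most like Prpf31 and Ppil1, both at 0.98, and Bdh1 at 0.97. The highest values were 0.97 for Jag2 (Sh3bp1), 0.96 for Jag1 (Cbx3), 0.95 for Hes1 (Kti12) and Notch3 (Zswim8), 0.92 for Hes5 (Etv4) and Hey1 (Rtn4rl1), 0.90 for Notch1 (Ago2) and 0.82 for Notch2 (Gnrh1). Among the 45 pairs of members, Hes1 and Heyl had the highest correlation (0.76), followed by Dll1 and Hey1 (0.75) and Jag2 and Notch3 (0.70). Dll1 and Heyl had the lowest, at -0.70.

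On GRCm38, in the GENCODE vM21 annotation, Jag1 lies at chr2:137081456-137116644 on the minus strand, Jag2 at chr12:112907819-112929776 (minus) and Dll1 at chr17:15367354-15376872 (minus). Notch1 lies at chr2:26457903-26516663 (minus), Notch2 at chr3:98013527-98150361 (plus) and Notch3 at chr17:32120820-32166852 (minus). Hes1 lies at chr16:30064384-30067796 (plus), Hes5 at chr4:154960923-154962371 (plus), Hey1 at chr3:8663359-8667256 (minus) and Heyl at chr4:123233556-123249875 (plus). Other annotated genes overlap with Notch1, Notch2, Notch3, Jag2, Dll1 and Hes5. For Hes5 it is Gm20421 on the opposite strand, and since these libraries keep no strand, reads of such a pair cannot be told apart.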

How the data were processed

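Whole-skin RNA was sequenced as paired-end SMART-seq2 libraries. The authors aligned reads to mm10 with GENCODE vM8, quantified them with RSEM 1.2.25, applied a batch correction whose batches are not named, and deposited FPKM per gene. No count table was used here. Groups came from the titles and source names of the samples. Limma 3.58.1 in R 4.3.3 was fitted to log2(FPKM + 1) for genes that reached 0.5 FPKM in 2 or more libraries, with a variance trend in eBayes and Benjamini-Hochberg adjustment. All 43 skin libraries were fitted as 18 groups, and the 7 refractory telogen and the 7 ear table libraries by themselves. This gave 21257, 17669 and 19299 genes tested. The limma fits were tested on simulated data. The number of fragments per library was estimated from 12418 single-transcript genes, whose FPKM move in steps of 1 fragment, and covers counting error only. Sums, correlations and figures used Python 3.11.15, numpy 2.4.6, pandas 2.3.3 and matplotlib 3.10.9. Promoter sequences are RefSeq's, and positions are GENCODE vM21's, both on GRCm38. Hes1, Hey1 and Heyl had no promoter entry. The gene most like Dll1 is not reported here.

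The 10 members, the other pathway genes and the marker lists were chosen with earlier results of these data known. All members are named. Other pathway genes were named only if among the 2 with the largest change past the threshold in a comparison, and not all of these are named. One marker of the hair matrix list was not matched. Alternatives were a pseudocount of 0.1, no filter, a minimum of 5 FPKM, TPM, median-of-ratios and quantile scaling, the replicate number as a block, no trend of variance, each library left out in turn, all 43 libraries for refractory telogen and dorsal refractory telogen in the ear comparison. Leaving out ventral early anagen and taking either telogen group alone were chosen after seeing the data.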

Additional observations from a re-analysis of the deposited data

Results flagged for a closer look

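Each member's course over the 6 stages was not the same in the 3 domains, by limma's F-test of the interaction over the 43 skin libraries, adjusted over all genes. The adjusted p was 1.96e-09 for Jag1, 1.66e-08 for Jag2 and 1.57e-05 for Dll1. It was 6.86e-05 for Notch1, 0.000786 for Notch2 and 2.13e-07 for Notch3, and 1.39e-10 for Hes1, 0.00379 for Hes5, 1.34e-07 for Hey1 and 8.16e-10 for Heyl. Of all genes tested, 73.3% had such an interaction. Ventral early anagen, whose cycling and melanocyte markers stood with refractory telogen, takes part in each of these values. Without it 9 of the 10 were past the threshold, against 70.6% of all genes.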

How the results depend on the processing

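Depth limits Hes5 most, with a median of 5 fragments. Counts of members past the threshold were 10 with 1 library left out in turn for the interaction. They ranged from 9 to 10 for the stages in chin and in ventral skin and 8 to 10 in dorsal skin. For the domains the ranges were 6 to 9 at competent telogen and at early anagen, 3 to 5 at mid-anagen, 1 to 4 at late anagen and at refractory telogen, and 8 to 9 at catagen. For anagen over telogen they were 5 to 7 in chin, 2 to 3 in ventral and 3 to 6 in dorsal skin, the lowest without dorsal refractory telogen replicate 2. For refractory over competent telogen they were 3 to 5 in chin (lowest without competent telogen replicate 1), 5 to 6 in ventral and 3 to 7 in dorsal skin (lowest without competent telogen replicate 2). They were 0 to 1 for each pair of domains in refractory telogen, 3 to 7 for ear over dorsal skin and 7 to 8 for the complex over either skin. The 3 of ear over dorsal skin came without 1 ear skin library or dorsal replicate 2.

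Domain differences at refractory telogen, 2 members as reported, were 1 with a pseudocount of 0.1 or no filter, 5 with the median of ratios and 4 with quantile normalization. For refractory over competent telogen in ventral skin the 5 members became 9 with either of these scalings. The 2 members of ventral anagen over telogen became 0 with a minimum of 5 FPKM, 1 with quantile normalization, 7 without ventral early anagen, 5 against refractory telogen alone and 6 against competent telogen alone. Of all genes, 31.2% were called without ventral early anagen, 26.7% against refractory telogen alone and 43.7% against competent telogen alone. In chin skin the 6 members became 2 against competent telogen alone, where 24.5% of all genes were called. The 8 members of early anagen became 4 without the ventral group, where 26.3% of all genes were called. Ventral over chin skin in refractory telogen went from 1 to 0 without a filter and with the median of ratios. Dorsal over chin skin went from 0 to 1 with the median of ratios, quantile normalization or all 43 libraries, and dorsal over ventral skin from 0 to 1 with all 43. These causes were not tested.

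Signs changed in 8 cases. Against competent telogen alone, Jag1, Hes1 and Heyl in chin skin became -0.07, -0.09 and -0.13 and Notch3 in dorsal skin 0.00, and against refractory telogen alone Jag2 in dorsal skin became -0.06. With ear skin set against dorsal refractory telogen, Dll1 and Hey1 became -0.31 and -0.14. Heyl in the complex over ear skin, not past the threshold, became 0.03 with quantile normalization. Members not past the threshold as reported changed sign in another 87 planned cases and 13 added ones.

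With the replicate number as a block, 1 member differed among domains at refractory telogen and 0 between ventral and chin skin there, in place of 2 and 1. It ended 4 single calls: Notch3 among domains at refractory telogen (adjusted p = 0.053), Jag2 between ventral and chin skin there (0.156), Hes1 in refractory over competent dorsal telogen (0.0525) and Jag1 in chin anagen over telogen (0.0504). The other counts moved by at most 1, with 10 for the interaction. The numbers do not pair the libraries, since 327 same-number pairs had a median correlation of 0.003 of their deviations and 2.75% were over 0.1, though 27 of 43 libraries were closer to their own number. The block was not run for the ear table, whose ear skin columns carry no replicate number of the labels.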
